A study of Mus musculus with 24 samples.

Results

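The BCL2 family was followed as 10 genes of the 45318 Ensembl genes in the count table, chosen by name: the survival genes Bcl2, Bcl2l1, Mcl1 and Bcl2a1b, the BH3-only genes Bmf, Bcl2l11, Bid, Bad and Pmaip1, and the effector Bak1. All 10 had rows in the table. RNA had been sequenced from Lys-GFP-ER-HoxA9 cells, mouse myeloid progenitors on the C57Bl/6 background with a lysozyme-GFP reporter. In them the homeobox protein HoxA9 is fused to the oestrogen receptor (ER) and holds the cells immature while estradiol is in the medium. The R07 arm held 4 libraries of the same cells given R07, named in the labels by this code alone, at 12, 36, 72 and 120 h (1 library a time). The withdrawal arm held 20 libraries, 2 (called A and B) at each of 10 times after estradiol was taken away, which were 0, 4, 8, 12, 24, 36, 48, 72, 96 and 120 h. The comparison groups all carry the fusion and the reporter, and were grown in RPMI1640 with fetal bovine serum, Stem Cell Factor and 0.5 uM estradiol until its removal. Whether estradiol was in the medium with R07 is not stated, nor whether the 2 libraries of a time came from separate cultures, so a p-value measures the spread between these libraries, which may be technical. The model is a single engineered line in culture, and its death and survival transcripts were read in all cells of a dish together.

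Proteins of the BCL2 family decide whether the outer membrane of the mitochondrion is opened, which lets cytochrome c out and starts the caspases. The survival proteins hold back the effectors BAX and BAK, and BH3-only proteins bind the survival proteins or the effectors and so release the opening. In the myeloid lineage MCL1 is known as a protein neutrophils and their precursors need, BCL2 A1 as an induced survival protein of mature granulocytes and macrophages, and BIM (the product of Bcl2l11), BMF and NOXA (the product of Pmaip1) as transcriptionally controlled death signals.

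The bases just before the transcription start are shown for the gene that fell furthest, Bcl2, and for the 3 genes that rose furthest among those with reads at 0 h, Bmf, Bcl2l11 and Mcl1. They come from RefSeq (GRCm38.p6), run 5′ to 3′ on the gene's own strand over the 250 bases before the start (the start listed furthest upstream where there are several), and carry in capitals every match to the motifs searched.
Bcl2: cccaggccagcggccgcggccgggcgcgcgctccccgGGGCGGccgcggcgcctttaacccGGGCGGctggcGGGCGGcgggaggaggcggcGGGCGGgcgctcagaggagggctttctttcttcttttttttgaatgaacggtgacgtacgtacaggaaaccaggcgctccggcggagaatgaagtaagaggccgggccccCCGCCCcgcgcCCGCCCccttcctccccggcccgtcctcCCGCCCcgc
Bmf: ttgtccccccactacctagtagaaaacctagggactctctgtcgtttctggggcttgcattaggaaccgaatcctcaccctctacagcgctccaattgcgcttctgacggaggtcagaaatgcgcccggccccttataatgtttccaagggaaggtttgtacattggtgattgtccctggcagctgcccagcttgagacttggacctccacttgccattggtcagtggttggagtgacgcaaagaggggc
Bcl2l11: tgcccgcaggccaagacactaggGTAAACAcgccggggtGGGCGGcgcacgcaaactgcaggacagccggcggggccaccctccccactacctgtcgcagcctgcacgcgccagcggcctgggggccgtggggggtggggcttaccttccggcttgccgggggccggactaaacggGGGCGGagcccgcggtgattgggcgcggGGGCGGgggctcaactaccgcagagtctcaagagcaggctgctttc
Mcl1: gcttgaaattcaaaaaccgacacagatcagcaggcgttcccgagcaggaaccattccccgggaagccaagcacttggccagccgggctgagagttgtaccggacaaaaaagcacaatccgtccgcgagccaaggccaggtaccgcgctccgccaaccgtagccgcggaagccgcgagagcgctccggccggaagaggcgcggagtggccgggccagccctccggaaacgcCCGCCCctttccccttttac
These stretches lie at chr1:106714291-106714540, minus strand for Bcl2, chr2:118549687-118549936, minus strand for Bmf, chr2:128125788-128126037, plus strand for Bcl2l11 and chr3:95658471-95658720, plus strand for Mcl1. The 10 motifs, read on both strands, were the FOXO core TGTTTAC, the E-box CACGTG, the C/EBP palindrome TTGCGCAA, the AP-1 site TGANTCA, the ETS core AGGAAGT, the STAT palindrome TTCNNNGAA, the oestrogen response element (2 inverted GGTCA sites with 3 bases between them), the GC box GGGCGG, the CRE TGACGTCA and the HOX and PBX site TGATTNAT. Bcl2l11 held 1 FOXO core, at bases -227 to -221 counted back from its start, a match present in 3.17% of the 32851 promoters of the same length, and it held 3 GC boxes. Bcl2 held 7 GC boxes and Mcl1 held 1, a motif present in 32.7% of all promoters, and the stretch before Bmf held none of the 10 motifs. Of the 9 members whose promoters were read, at 15 starts in all, 1 held the FOXO core, 1 the AP-1 site (6.75% of all promoters), 3 the ETS core (7.69%) and 6 the GC box. The E-box (6.02%), the C/EBP palindrome (0.164%), the STAT palindrome (7.02%), the oestrogen response element (0.0639%), the CRE (1.55%) and the HOX and PBX site (2.82%) had no match. No matches of different motifs overlapped. Such matches describe letters in a window and say nothing of binding.

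Between 36.7 and 49.6 M counts a library fell on genes, from 82.7 to 85.7% of its reads. Levels are CPM, counts per M after scaling of library sizes, and changes are log2 values ± SE from edgeR's quasi-likelihood test with Benjamini-Hochberg adjustment over all genes tested. "Rose" and "fell" mean an adjusted p under 0.05. The cells' markers moved with time. The summed level of the 4 immature markers Kit, Cd34, Flt3 and Myb was 114 to 122 CPM at 120 h against 4804 to 4828 CPM at 0 h. That of the 9 granulocyte markers was 16345 to 21175 CPM against 4017 to 4273 CPM. Of these 9, 6 rose and 2 fell, so the sum joins opposite changes. Most of the 0 h sum was Mpo, with a mean of 3852 CPM at 0 h and 78.5 CPM at 120 h. Ltf, Ngp, S100a8 and S100a9 had means of 5014, 3468, 4092 and 5743 CPM at 120 h, and of at most 1.09 CPM at 0 h. The summed level of the 6 monocyte and macrophage markers was 4471 to 4659 CPM against 7.90 to 8.12 CPM. In R07 libraries the immature markers summed to 5134 to 5571 CPM, the granulocyte markers to 3535 to 10118 CPM and the monocyte and macrophage markers to 18.7 to 109 CPM. In every library the 4 erythroid markers summed to at most 1.11 CPM and the 5 T cell markers to at most 2.05 CPM, with Cd3e and Cd8a at no read. The 5 B cell markers summed to 83.3 to 89.2 CPM at 120 h against 43.9 to 48.0 CPM at 0 h, and the 5 eosinophil and mast cell markers to 47.1 to 51.2 CPM against 236 to 278 CPM. The eosinophil and mast cell markers summed to 358 to 1109 CPM in R07 libraries and reached 1880 CPM in the highest of all libraries. Among them Prg2 had a mean of 41.7 CPM at 120 h against 4.28 CPM at 0 h. Cpa3 (6.98 against 189 CPM) and Mcpt8 (0.307 against 63.6 CPM) went the other way. In whole-dish RNA a change in the mix of cells and a change of RNA per cell cannot be told apart, and the part of the cell mix in the changes below was not tested.

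Across the withdrawal course survival genes and BH3-only genes both moved. By 120 h the BH3-only genes Bmf, Bcl2l11, Pmaip1 and Bad and the survival genes Mcl1, Bcl2l1 and Bcl2a1b stood above their 0 h level, while Bcl2 and Bid stood below it. All 10 members changed over the course, in a test of the 9 later times together, where 91.1% of all genes passed, so that count lies near the background. At 120 h against 0 h 7 members rose and 2 fell, against 79.9% of all genes called, 39.6% higher and 40.3% lower. Bcl2a1b is in both counts but passed the filter on low counts through late libraries, where it is high, so its part is a description. The median log2 change of the members was 1.97, that of all genes tested was -0.06.

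**Figure D1:**
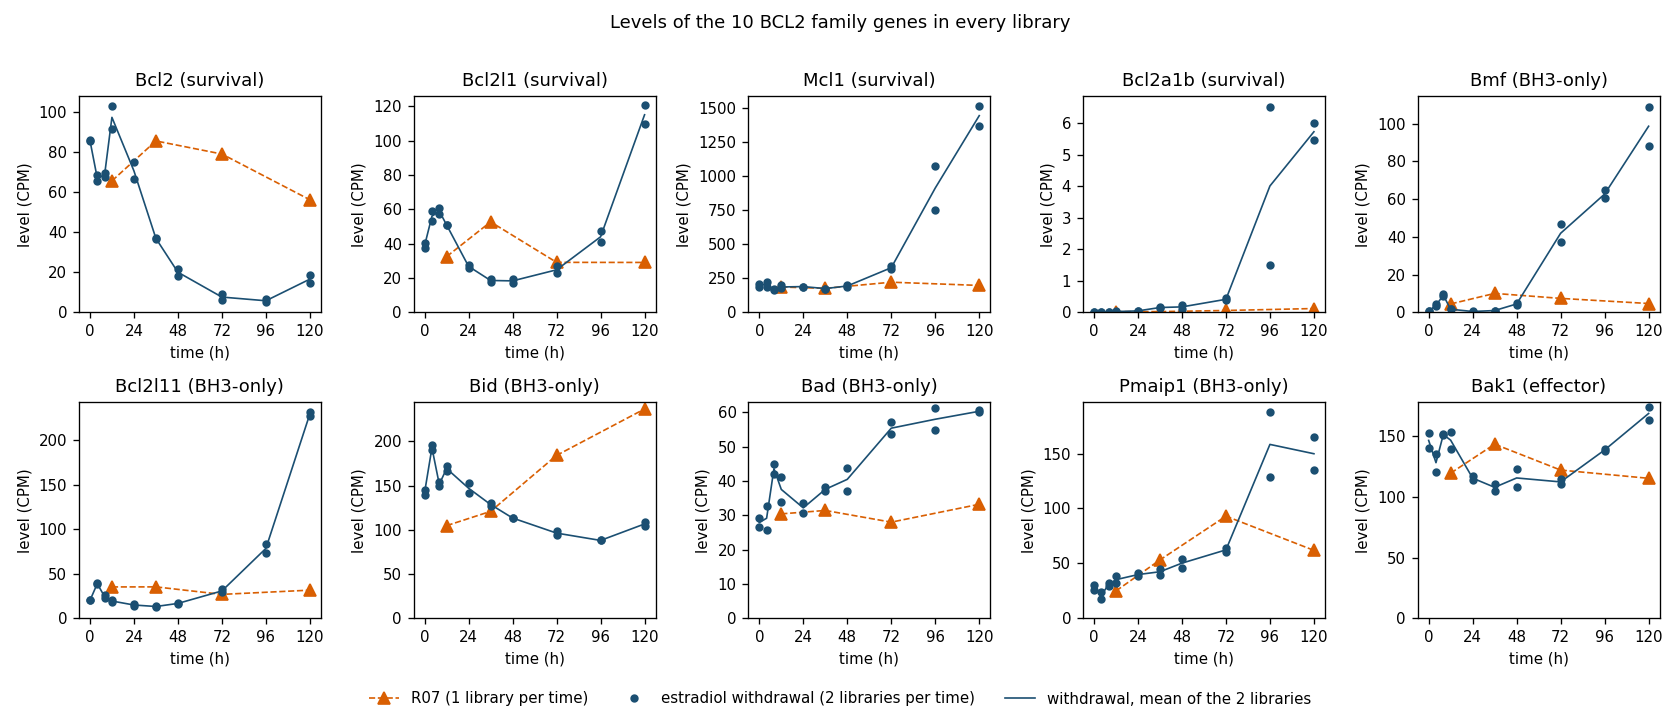
Level (CPM, linear axis from 0) of each of the 10 genes against time in hours. Orange triangles joined by dashes are the single R07 libraries, blue points the 2 withdrawal libraries of a time and the blue line their mean; at 120 h Bmf, Bcl2l11 and Mcl1 were far lower in R07 (4.64, 31.6 and 197 CPM) than in both withdrawal libraries, while Bcl2 and Bid were higher in R07.

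Among the survival genes, Bcl2, which encodes the founding member of the family and holds the effectors in check at the mitochondrion and endoplasmic reticulum, stayed near its starting level for a day and then fell (ENSMUSG00000057329.7, chr1:106538178-106714274, minus strand, GRCm38). It had 85.4 and 86.0 CPM at 0 h, 65.6 and 68.2 at 4 h, 67.5 and 69.4 at 8 h, 103 and 91.6 at 12 h and 74.7 and 66.3 at 24 h. It had 36.7 and 36.9 CPM at 36 h, 18.2 and 21.7 at 48 h, 6.28 and 8.87 at 72 h, 6.49 and 4.98 at 96 h and 14.5 and 18.5 at 120 h. The later libraries, from 36 h on, all lay below both libraries at 0 h, with the lowest pair at 96 h and a partial return at 120 h. The log2 change against 0 h, by edgeR, was -1.23 ± 0.14 (adjusted p = 3.41e-07) at 36 h and -3.51 ± 0.15 (adjusted p = 5.83e-14) at 72 h. It was -3.92 ± 0.16 (adjusted p = 1.01e-14) at 96 h and -2.40 ± 0.15 (adjusted p = 3.52e-12) at 120 h. None of the 4 times before 36 h passed the test, their changes running from -0.36 at 4 h to 0.17 at 12 h, though both libraries at 4, 8 and 24 h lay below both at 0 h. Between neighbouring times Bcl2 rose at 12 h over 8 h (0.51 ± 0.13, adjusted p = 0.0193) and at 120 h over 96 h (1.52 ± 0.16, adjusted p = 1.52e-07), and fell at each of the steps between 12 h and 96 h. The step to 12 h was not called when 8 h A, 8 h B or 12 h A was left out (adjusted p = 0.155, 0.11 and 0.164, edgeR), nor was that to 24 h without 12 h A or 24 h B (adjusted p = 0.149 and 0.195). The last of those falls, 96 h against 72 h (-0.41 ± 0.17, adjusted p = 0.0449), did not pass with RLE scaling, with DESeq2 or with a block on the letter (adjusted p 0.00508 to 0.588 over 24 alternatives, edgeR and DESeq2).

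Mcl1, whose short-lived product restrains BAK and the BH3-only proteins BIM and NOXA, stayed near its starting level for 2 days and then rose (ENSMUSG00000038612.13, chr3:95658788-95663176, plus strand). It had 187 and 208 CPM at 0 h, 186 and 225 at 4 h, 164 and 169.9 at 8 h, 197 and 174 at 12 h and 188 and 189 at 24 h. It had 174 and 174 CPM at 36 h, 187 and 199 at 48 h, 339 and 315 at 72 h, 1070.1 and 753 at 96 h and 1516 and 1368 at 120 h. No time up to 48 h passed the test against 0 h, with changes from -0.26 to 0.06, though both libraries at 8 h and 36 h lay below both at 0 h. Fitted on the 8 h and 0 h libraries alone, Mcl1 was lower at 8 h (-0.26 ± 0.08, adjusted p = 0.0207, edgeR). Every library from 72 h on lay above both at 0 h. The change against 0 h was 0.71 ± 0.13, adjusted p = 6.15e-05 at 72 h, 2.19 ± 0.13 (adjusted p = 5.67e-12) at 96 h and 2.85 ± 0.14 (adjusted p = 8.97e-14) at 120 h, by edgeR. The steps from 72 h on were each called: 72 h over 48 h (0.75 ± 0.13), 96 h over 72 h (1.48 ± 0.13) and 120 h over 96 h (0.66 ± 0.13). The 2 libraries at 96 h lay apart, A above B, as they did for Pmaip1 and the Bcl2a1 genes.

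Bcl2l1, the gene of BCL-XL, moved in 3 phases: up early, down in the middle, up at the end (ENSMUSG00000007659.15, chr2:152780668-152831728, minus strand). It had 40.4 and 37.4 CPM at 0 h, 58.8 and 53.2 at 4 h, 57.0 and 60.8 at 8 h, 50.9 and 50.8 at 12 h and 25.8 and 27.7 at 24 h. It had 17.6 and 19.5 CPM at 36 h, 19.4 and 17.2 at 48 h, 26.8 and 22.6 at 72 h, 47.2 and 40.7 at 96 h and 109 and 121 at 120 h. Both libraries at 4, 8 and 12 h lay above both at 0 h, those from 24 h to 72 h lay below, and those at 96 h and 120 h again above, with 96 h not called. The log2 change against 0 h was 0.59 ± 0.11, adjusted p = 4.48e-04 at 8 h, -1.09 ± 0.11 (adjusted p = 4.75e-08) at 48 h, 0.16 ± 0.11 (adjusted p = 0.183) at 96 h and 1.54 ± 0.11 (adjusted p = 3.35e-11) at 120 h, by edgeR. Table counts are per gene, so the long and short splice forms of Bcl2l1, which oppose each other, were not separated.

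Bcl2a1b encodes a form of A1, a survival protein induced in granulocytes and macrophages, and was silent at the start (ENSMUSG00000089929.1, chr9:89199209-89207827, plus strand). It had no read in either library at 0 h and 0.175 and 0.127 CPM at 36 h, 0.106 and 0.235 at 48 h, 0.438 and 0.384 at 72 h, 6.52 and 1.49 at 96 h and 5.45 and 6.00 at 120 h. Both libraries at every time from 24 h on lay above 0 h. The gene passed the filter on low counts through late libraries, where it is high, so its calls from 48 h on are given as a description. The 48 h call was lost when either 0 h library or 48 h B was left out. Set against a floor of 3 counts over the 0 h group, its level was at least 118-fold higher at 96 h and at least 169-fold higher at 120 h, bounds that cover counting error only. At 96 h the bound rests on library A: from B alone it is 44.0-fold. The mouse genome carries near-identical copies of this gene. Of the windows of 101 bases in each transcript, 69.5% of those of Bcl2a1b, 56.9% of those of Bcl2a1a and 46.0% of those of Bcl2a1d were absent from the other 2 copies, so the split of reads among them is uncertain. Together the 3 copies reached 67.8 and 73.9 CPM at 120 h, and 59.4 and 19.8 at 96 h, against 0.177 and 0.613 CPM at 0 h, and Bcl2a1b was the smallest part of the sum at both later times.

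The copies also share the bases before their starts, shown here because these 3 genes rose together. The stretches come from RefSeq (GRCm38.p6), run over 60 bases from 20 bases before the AP-1 match, and carry the AP-1 and ETS matches in capitals.
Bcl2a1b: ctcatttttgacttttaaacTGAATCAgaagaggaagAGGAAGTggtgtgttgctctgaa
Bcl2a1a: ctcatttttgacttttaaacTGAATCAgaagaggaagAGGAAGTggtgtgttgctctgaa
Bcl2a1d: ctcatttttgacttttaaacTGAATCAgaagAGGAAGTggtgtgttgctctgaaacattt
They lie at chr9:89199089-89199148, plus strand, chr9:88956780-88956839, plus strand and chr9:88731925-88731984, minus strand for Bcl2a1b, Bcl2a1a and Bcl2a1d in that order. Each had an AP-1 match followed by an ETS match, with 10 bases between them in Bcl2a1b and Bcl2a1a and 4 in Bcl2a1d. At 120 h against 0 h Bcl2a1a changed by 6.93 ± 0.46 (adjusted p = 1.51e-11) and Bcl2a1d by 7.61 ± 0.49 (adjusted p = 1.00e-11) on the log2 scale, by edgeR.

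The make-up of the 4 survival transcripts shifted with these changes. In these shares A1 is counted by Bcl2a1b alone. Its copies Bcl2a1a and Bcl2a1d, left out of the sum, had means of 37.8 and 39.6 CPM per kilobase at 120 h. At 0 h they had 0.286 and 0.186. At 120 h Bcl2a1b had 7.01, Bcl2l1 25.1 and Mcl1 422. Counting the copies would lower the Mcl1 share at 120 h and bring it close to that at 0 h, so the shares hold for these 4 genes only. Per kilobase of exon, Mcl1 held 93.2 and 91.8% of their summed level at 120 h, against 75.1 and 77.6% at 0 h. Bcl2 held 0.334 and 0.464% at 120 h, against 12.8 and 12.0% at 0 h. Bcl2l1 held 5.02 and 6.03% at 120 h, against 12.1 and 10.4% at 0 h. The Mcl1 share was the greater part in all 24 libraries, and the Bcl2 share was under 1% in the 6 withdrawal libraries from 72 h on. In the 4 R07 libraries Bcl2 held 10.5, 12.9, 10.8 and 8.72% at 12, 36, 72 and 120 h, and Mcl1 held 79.2, 71.2, 81.1 and 82.1%.

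**Figure D2:**
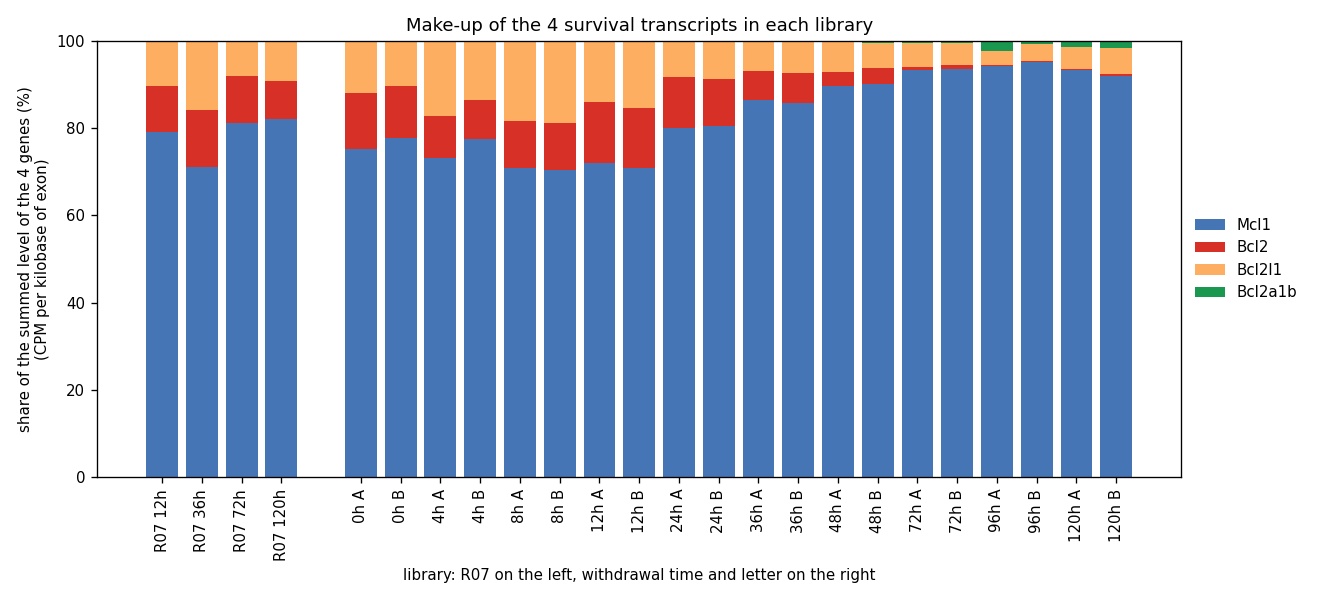
Share (%) of Mcl1, Bcl2, Bcl2l1 and Bcl2a1b in their summed level (CPM per kilobase of exon) in each library, R07 on the left and withdrawal on the right in order of time. The Bcl2 band narrows in withdrawal to 0.334 and 0.464% at 120 h and stays between 8.72 and 12.9% in R07. The copies Bcl2a1a and Bcl2a1d are not in the sum.

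Among the BH3-only genes, Bmf showed 2 separate waves (ENSMUSG00000040093.12, chr2:118528757-118549687, minus strand). Its product is held on the cytoskeleton and binds survival proteins when released. It had 0.657 and 0.592 CPM at 0 h, 4.12 and 3.30 at 4 h, 9.56 and 8.44 at 8 h, 1.51 and 1.68 at 12 h and 0.506 and 0.311 at 24 h. It had 0.896 and 0.930 CPM at 36 h, 4.91 and 3.90 at 48 h, 46.7 and 37.1 at 72 h, 60.4 and 64.9 at 96 h and 109 and 88.2 at 120 h. The first wave peaked at 8 h and was over by 24 h, when both libraries lay below both at 0 h, and the second began by 48 h. The change against 0 h was 2.57 ± 0.23, adjusted p = 2.46e-07 at 4 h, 3.84 ± 0.21 (adjusted p = 1.61e-10) at 8 h and 1.34 ± 0.26 (adjusted p = 9.42e-04) at 12 h, and did not pass the test at 24 h (-0.62 ± 0.34, adjusted p = 0.192) or 36 h (0.55 ± 0.29, adjusted p = 0.138). It was 2.81 ± 0.23 (adjusted p = 1.71e-09) at 48 h, 6.05 ± 0.20 (adjusted p = 9.64e-16) at 72 h and 7.28 ± 0.20 (adjusted p = 2.67e-17) at 120 h, all by edgeR. All 8 steps between neighbouring times from 4 h on passed, with log2 changes of -2.49 ± 0.18 at 12 h against 8 h and -1.97 ± 0.28 at 24 h against 12 h, and the highest rise, 3.24 ± 0.16, at 72 h over 48 h. The step at 36 h over 24 h was lost when 24 h B or either 36 h library was left out. Between its lowest mean at 24 h and its highest at 120 h lay a ratio of 241.

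Bcl2l11, the gene of BIM, which binds all survival proteins and can activate the effectors directly, also had an early peak and a late rise (ENSMUSG00000027381.13, chr2:128126038-128162547, plus strand). It had 20.001 and 20.04 CPM at 0 h, 38.6 and 39.1 at 4 h, 22.9 and 25.8 at 8 h, 20.7 and 18.1 at 12 h and 15.6 and 14.2 at 24 h. It had 13.1 and 13.3 CPM at 36 h, 15.7 and 17.7 at 48 h, 32.4 and 29.1 at 72 h, 83.4 and 73.8 at 96 h and 232 and 228 at 120 h. Its early peak came at 4 h, before that of Bmf at 8 h, and both libraries from 24 h to 48 h lay below both at 0 h. The change against 0 h was 0.96 ± 0.10, adjusted p = 2.05e-06 at 4 h, -0.60 ± 0.11 (adjusted p = 1.05e-04) at 36 h, 1.95 ± 0.10 (adjusted p = 5.98e-13) at 96 h and 3.50 ± 0.11 (adjusted p = 1.13e-16) at 120 h, by edgeR. The step at 8 h against 4 h was -0.69 ± 0.10 (adjusted p = 1.18e-04), and the final step, 120 h over 96 h, was 1.55 ± 0.10 (adjusted p = 1.08e-10).

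Pmaip1, the gene of NOXA, which binds MCL1 and A1, was higher from 24 h on, most at 96 h and 120 h (ENSMUSG00000024521.7, chr18:66458533-66465565, plus strand). It had 25.3 and 30.6 CPM at 0 h, 17.8 and 24.1 at 4 h, 29.3 and 32.2 at 8 h, 38.3 and 32.0 at 12 h and 40.8 and 38.7 at 24 h. It had 45.2 and 39.6 CPM at 36 h, 46.2 and 54.2 at 48 h, 60.7 and 63.8 at 72 h, 188 and 129 at 96 h and 165 and 135 at 120 h. The libraries at 4 h lay below both at 0 h, and those from 12 h on lay above. The change against 0 h passed at every time from 24 h, with 0.50 ± 0.17, adjusted p = 0.0308 at 24 h, 2.48 ± 0.17 (adjusted p = 4.74e-11) at 96 h and 2.3996 ± 0.17 (adjusted p = 6.19e-11) at 120 h, by edgeR. The 24 h call was lost when 0 h A or either 24 h library was left out, and the 36 h call when 0 h A or 36 h A was (adjusted p = 0.0993 and 0.0788, edgeR).

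Bad and Bid moved less. Bad, whose product is kept inactive by phosphorylation downstream of growth factor receptors, had 60.6 and 60.1 CPM at 120 h, and 45.0 and 42.2 at 8 h, against 29.3 and 26.5 CPM at 0 h (ENSMUSG00000024959.10, chr19:6941861-6951899, plus strand). It rose at every time but 4 h (0.06 ± 0.12, adjusted p = 0.817) and 24 h (0.20 ± 0.12, adjusted p = 0.244), with changes of 0.63 ± 0.12, adjusted p = 7.66e-04 at 8 h and 1.09 ± 0.12, adjusted p = 5.52e-08 at 120 h, by edgeR. Its 12 h call was lost when 0 h B or 12 h B was left out (adjusted p = 0.182 and 0.295, edgeR) and its 36 h call when 0 h B was (adjusted p = 0.0793). Bid, whose product links death receptors to the mitochondrion once caspase-8 has cut it, had 109 and 105 CPM at 120 h, 88.1 and 88.1 at 96 h and 196 and 190.0 at 4 h, against 145 and 139.7 CPM at 0 h (ENSMUSG00000004446.9, chr6:120891930-120916853, minus strand). Bid was above 0 h at 4 h (0.44 ± 0.08, adjusted p = 4.97e-04) and at 12 h (0.24 ± 0.08, adjusted p = 0.0374), the 12 h call being lost under 10 alternatives, and below it from 48 h on, furthest at 96 h (-0.71 ± 0.08, adjusted p = 4.59e-08), so that it was one of 2 members that fell at 120 h (-0.44 ± 0.08, adjusted p = 2.98e-05), with Bcl2. Exons of Bid overlap those of Bcl2l13 on the other strand, and those of Bad overlap Gpr137 likewise. The kit kept strand, but the counting setting is not given in the sources used here.

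Bak1, the effector that forms the pore in the outer membrane, was the steadiest member (ENSMUSG00000057789.10, chr17:27019810-27029009, minus strand). It had 174 and 163 CPM at 120 h, 115 and 110.3 at 72 h and 105 and 111 at 36 h, against 153 and 140.1 CPM at 0 h. It was lower than at 0 h from 24 h to 72 h, by 0.45 ± 0.09 on the log2 scale at 36 h (adjusted p = 4.20e-04), and did not pass the test at 120 h (0.18 ± 0.09, adjusted p = 0.0656), where both libraries lay above both at 0 h, nor at 4, 8, 12 or 96 h, by edgeR. Its 24 h call was lost without 0 h A or 24 h B and its 48 h call without 48 h B. Its ratio of highest to lowest mean was 1.56, the smallest of the 9 members with reads at every time, beside 2.16 for Bad, 2.19 for Bid and 17.4 for Bcl2l11. Its exons overlap those of Ggnbp1 on the other strand.

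**Figure D3:**
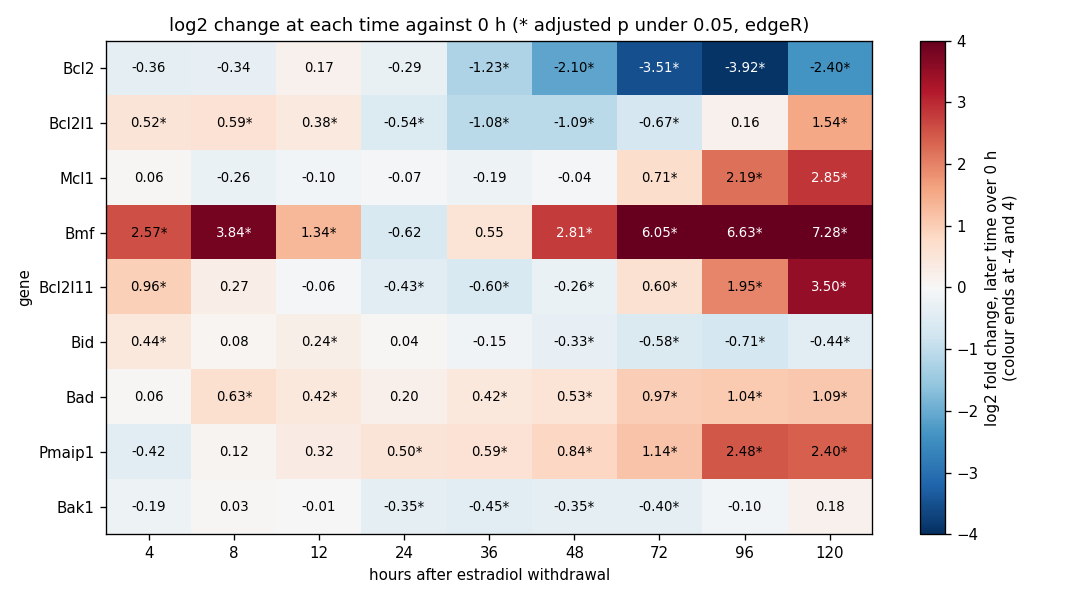
Log2 change at each withdrawal time against 0 h for the 9 genes with reads at 0 h, with genes down the page, hours across, and colour running between -4 and 4. An asterisk marks an adjusted p under 0.05 (edgeR), and Bmf shows high values at 8 h (3.84) and again at 120 h (7.28), with no asterisk at 24 h and 36 h between them.

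More members were called late than early, as was so for all genes. At 4 h 4 members rose (Bmf, Bcl2l11, Bcl2l1 and Bid) and none fell, against 11.7% of all genes called, 7.22% higher and 4.53% lower. At 8 h 3 were called against 21.9% of all genes, at 12 h 4 against 16.0%, at 24 h 4 against 27.9%, at 36 h 6 against 40.9%, at 48 h 9 against 52.6%, at 72 h 10 against 69.6% and at 96 h 8 against 77.4%. Fitted on the 8 h and 0 h libraries alone, 6 members were called at 8 h against 35.3% of all genes, with Bcl2, Mcl1 and Bcl2l11 added. The 12 h and 24 h counts rested on single libraries. The 12 h count dropped to 1 when 0 h B or 12 h B was left out and to 2 when 12 h A was. The 24 h count dropped to 2 when 0 h A was left out and to 1 when 24 h B was. At 24 h 1 member rose (Pmaip1) and 3 fell (Bcl2l1, Bcl2l11 and Bak1), where 13.5% of all genes rose and 14.4% fell. At 72 h 6 rose and 4 fell, where 34.9% of all genes rose and 34.7% fell. Of the 90 pairs of a member and a step between neighbouring times 44 passed. Bcl2a1b, given as a description, is in the member counts from 48 h on and in these 44. Of all genes 12.4, 9.21, 19.6, 7.18, 12.7, 44.0, 53.7 and 43.2% passed at the 8 steps from 8 h over 4 h to 120 h over 96 h and 11.7% at the first.

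The order of the members' levels, compared per kilobase of exon, also changed. At 0 h Bak1 (60.9 CPM per kilobase), Mcl1 (57.8) and Bid (40.1) stood highest. Bad (10.9), Pmaip1 (10.2), Bcl2 (9.36) and Bcl2l1 (8.48) formed a middle group. Bcl2l11 (2.49) and Bmf (0.119) stood low. At 120 h Mcl1 stood highest (422), followed by Bak1 (70.1), Pmaip1 (54.8) and Bid (30.1). Below them came Bcl2l11 (28.6), Bcl2l1 (25.1), Bad (23.6), Bmf (18.8), Bcl2a1b (7.01) and Bcl2 (1.80). Bcl2 thus stood last of the 10 at 120 h, below Bmf, which had been lowest of the genes with reads at 0 h. The copies Bcl2a1a (37.8) and Bcl2a1d (39.6), which are not among the 10, stood above Bid and below Pmaip1 at 120 h. These are means of 2 libraries. At 0 h the libraries of Bak1 and Mcl1 overlapped, as did those of Bad and Pmaip1 and those of Pmaip1 and Bcl2, and at 120 h no neighbours in the order overlapped.

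R07 was set against withdrawal at the same 4 times, with 1 R07 library and 2 withdrawal libraries at each. Over the 4 times together 3 members were called, against 16.6% of all genes (10.5% higher and 6.09% lower in R07). Bcl2a1b is among the 3 and is given as a description only, for the reason below. Bcl2 was higher in R07 (1.66 ± 0.49, adjusted p = 0.0477), and Bad was lower (-0.59 ± 0.15, adjusted p = 0.0275), by edgeR. Bcl2 had 65.5 CPM at 12 h, 85.4 at 36 h, 78.9 at 72 h and 56.1 at 120 h in R07, against pairs of 103 and 91.6, 36.7 and 36.9, 6.28 and 8.87 and 14.5 and 18.5 CPM in withdrawal. It was below the withdrawal pair at 12 h and above it at the other 3 times. The Bcl2 call was lost under 12 of 16 alternatives, RLE scaling and the leaving out of each library but R07 at 12 h (adjusted p 0.00363 to 0.168 over the alternatives, edgeR and DESeq2), and its log2 difference was 0.92 without the R07 library at 72 h. Bad had 30.4 CPM at 12 h, 31.4 at 36 h, 28.0 at 72 h and 33.2 at 120 h in R07, below the withdrawal pair at all 4 times, where the 72 h pair was 57.1 and 53.7 CPM. Its call was lost when withdrawal 12 h B, 72 h A, 72 h B or 120 h B or the R07 library at 72 h was left out (adjusted p 0.0522 to 0.101, edgeR). Bcl2a1b had 1, 1, 3 and 5 counts in the R07 libraries. It passed the filter on low counts through the withdrawal libraries of 72 h (18 and 16 counts) and 120 h (197 and 174 counts). It dropped out of the test when any 1 of these 4 was left out. Its log2 difference of -3.66 ± 0.77 is therefore given as a description. The other 7 members did not pass: their log2 differences ran from -0.66 for Mcl1 to 0.51 for Bmf.

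That single difference averages over times at which R07 and withdrawal crossed. Bmf had 4.42 CPM at 12 h, 10.0 at 36 h, 7.36 at 72 h and 4.64 at 120 h in R07, against 1.51 and 1.68, 0.896 and 0.930, 46.7 and 37.1 and 109 and 88.2 CPM in withdrawal at the same times. R07 was above the pair at 12 h and 36 h and below it at 72 h and 120 h. Bcl2l11 had 35.2 CPM at 12 h, 35.3 at 36 h, 26.9 at 72 h and 31.6 at 120 h in R07, and crossed in the same way, the withdrawal pair at 120 h being 232 and 228 CPM. Mcl1 had 185 CPM at 12 h, 176 at 36 h, 220.5 at 72 h and 197 at 120 h in R07, close to withdrawal at 12 h and 36 h and below the pair of 1516 and 1368 CPM at 120 h. Bid went the other way, with 105 CPM at 12 h, 121 at 36 h, 184 at 72 h and 237 at 120 h in R07, below the withdrawal pair at 12 h and 36 h and above the pairs of 94.0 and 98.7 CPM at 72 h and 109 and 105 CPM at 120 h. Pmaip1 had 24.9 CPM at 12 h, 53.1 at 36 h, 93.0 at 72 h and 61.8 at 120 h in R07, above the pair at 36 h and 72 h and below it at 12 h and 120 h. Bcl2l1 had 32.4 CPM at 12 h, 52.7 at 36 h, 29.1 at 72 h and 29.0 at 120 h and Bak1 had 119.6 CPM at 12 h, 144 at 36 h, 122 at 72 h and 115 at 120 h in R07, both above the withdrawal pair at 36 h and 72 h and below it at 12 h and 120 h. A test of whether the R07 difference changed with time, chosen after seeing the data and taking its spread from the withdrawal pairs, passed for 9 members, against 79.5% of all genes; Bcl2a1b did not pass (adjusted p = 0.053, edgeR). Counted by library, R07 lay above the withdrawal pair for 2, 7, 5 and 2 of the 10 members at 12, 36, 72 and 120 h, where 41.7, 45.0, 45.6 and 51.1% of all genes tested did. It lay below the pair for 6, 3, 5 and 8 members, where 39.5, 46.0, 45.0 and 43.9% of all genes did.

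**Figure D4:**
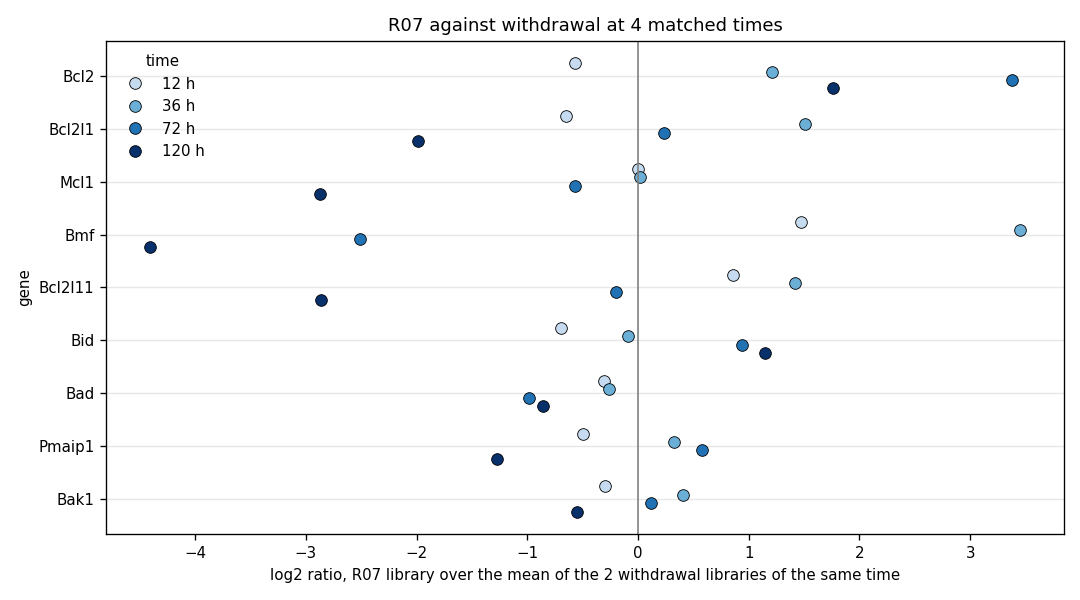
Log2 ratio of the R07 library to the mean of the 2 withdrawal libraries of the same time for 9 genes, with points darker at later times and no error bars because each R07 time has 1 library. Bcl2 lies right of 0 from 36 h on and Bid at 72 h and 120 h, while Mcl1, Bmf and Bcl2l11 lie far to the left at 120 h.

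Against the 2 libraries at 0 h, no member of the 9 tested passed in the 4 R07 libraries, nor did any gene (0% of 13704, edgeR). At an unadjusted p under 0.05 there were 2868 genes, 2 of them members, and DESeq2 called 1221 genes. In that comparison differences between the R07 times enter the spread. Bmf had 4.42 CPM at 12 h, 10.0 at 36 h, 7.36 at 72 h and 4.64 at 120 h in R07, against 0.657 and 0.592 CPM at 0 h, so that every R07 library lay above both at 0 h, between 7.07 and 16.0 times their mean. Its log2 change was 3.36 ± 0.48 (adjusted p = 0.138, edgeR) and passed with DESeq2 (3.35 ± 0.44, adjusted p = 1.78e-10), with no filter on low counts (adjusted p = 0.0258) and without the R07 library at 12 h (3.51 ± 0.43, adjusted p = 0.00816). Over its 10 alternatives the adjusted p ran from 1.78e-10 to 0.747. Bcl2l11 also lay above both 0 h libraries in every R07 library, with 35.2 CPM at 12 h, 35.3 at 36 h, 26.9 at 72 h and 31.6 at 120 h in R07, against 20.001 and 20.04 CPM at 0 h, and a change of 0.65 ± 0.19, adjusted p = 0.153 by edgeR, against an adjusted p of 0.0466 with DESeq2 (0.0466 to 0.747 over 10 alternatives). Pmaip1 lay above both 0 h libraries from 36 h on, and passed only where the R07 library at 12 h was left out (1.27 ± 0.27, adjusted p = 0.0262, edgeR, with 0.0262 to 0.747 over 10 alternatives). Without that library 2256 genes were called.

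The rest of the death machinery was read from lists chosen around the members. Of the other survival genes tested at 120 h against 0 h, 3 of 3 rose, namely Bcl2a1a and Bcl2a1d (given above) and Bcl2l2; the last had fallen at 4 h (-0.35 ± 0.11). The other effector, Bax, which forms the same kind of pore as BAK, rose at 120 h (1.27 ± 0.14, adjusted p = 2.86e-08, edgeR) and was lower in R07 than in withdrawal (-0.59 ± 0.17, adjusted p = 0.0458). Of 7 other BH3-only genes 4 rose and 3 fell at 120 h, with a median log2 change of 0.57. Bnip3l (1.36 ± 0.10) and Bnip3 (1.13 ± 0.25), both known for the removal of mitochondria, rose furthest, and Bcl2l14 (-2.03 ± 0.26) and Bcl2l12 (-1.39 ± 0.16) fell furthest. At 4 h Bbc3, the gene of PUMA, rose (0.67 ± 0.18, adjusted p = 0.0169), as did Bnip3l (0.51 ± 0.10).

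Downstream of the mitochondrion, 4 of 14 apoptosome and caspase genes rose at 120 h and 8 fell, with a median log2 change of -0.50 against -0.06 over all genes. The platform gene Apaf1 (1.496 ± 0.10) and the initiator Casp9 (2.02 ± 0.09) rose, while Cycs, which encodes cytochrome c, fell by 1.48 ± 0.15 and Endog, a mitochondrial nuclease, fell by 2.89 ± 0.23 on the log2 scale. Of 9 inhibitors of apoptosis 8 rose and 1 fell, with a median of 2.55: Naip1 (8.55 ± 0.58, from a mean of 0.0126 CPM at 0 h) and Naip2 (3.31 ± 0.10), which also serve as sensors of bacterial proteins, rose, and Birc5, a survivin gene tied to cell division, fell by 3.12 ± 0.12. The Naip genes are close copies of each other, so the split of reads among them is uncertain. Of 9 genes listed under the death receptor pathway, not all of them death receptors, 7 rose and none fell, with a median of 1.63. The TNF receptor gene Tnfrsf1b rose by 4.61 ± 0.15, and Fas had a mean of 4.00 CPM at 120 h and no read at 0 h. Of 5 genes of outer membrane channels 1 rose and 3 fell, Vdac1 falling by 1.45 ± 0.08.

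Genes listed around the control of the members' products or of their transcription are set beside 39.6% of all genes higher and 40.3% lower at 120 h. Of 7 genes listed under MCL1 turnover by ubiquitin 2 rose and 4 fell at 120 h. An action of each on MCL1 was not tested, so their changes say nothing of MCL1 protein. Trib1 and Trib2, related pseudokinases of ubiquitin ligase complexes, went in opposite directions, Trib1 by 3.52 ± 0.24 and Trib2 by -7.64 ± 0.44 on the log2 scale. Trib2 had already fallen at 4 h (-1.80 ± 0.25) and was higher in R07 than in withdrawal (7.37 ± 1.10, adjusted p = 0.00368, edgeR). Of 14 genes of the FOXO, PI3K and AKT arm, which acts on BIM, BMF and BAD, 6 rose and 6 fell, with a median of 0.13, shares close to those of all genes. The list mixes genes of opposite effect, so its median has no direction of its own. The survival kinase gene Pim1 rose (2.04 ± 0.14) and its relative Pim3 fell by 1.86 ± 0.13. At 4 h, when Bcl2l11 had its early peak and Bmf was on the way to its own at 8 h, Pim1 (0.77 ± 0.13) and Foxo3 (0.36 ± 0.11), a FOXO factor, rose and Pim3 fell by 0.36 ± 0.11.

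**Figure D5:**
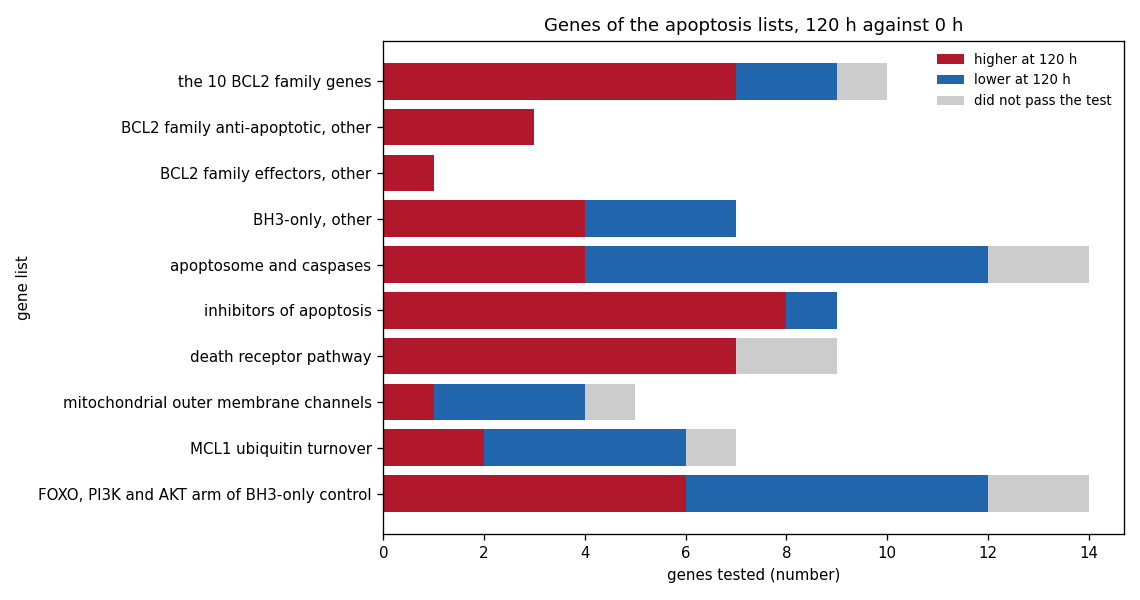
Number of genes tested in each list that were higher (red), lower (blue) or did not pass the test (grey) at 120 h against 0 h (edgeR, adjusted p under 0.05), with the 10 members on the top row. Of the lists, the inhibitors of apoptosis had 8 of 9 higher and the apoptosome and caspase genes 8 of 14 lower, beside 39.6% of all genes higher and 40.3% lower.

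Genes whose course was most like each member's were found over the 14 conditions (10 withdrawal times and 4 R07 times) among 8486 genes, by Pearson's r of mean log2 CPM; conditions share one time axis, and r is given as a description. For Bcl2 they were Aff3 (0.978), Camsap1 (0.977) and Trim44 (0.973), for Mcl1 Rap1b (0.991), Rab7 (0.991) and Reep3 (0.989), and for Bcl2a1b Bcl10 (0.990) and Chmp4b (0.988). For Bmf they were Spata6 (0.964), Stx2 (0.964) and Csrnp1 (0.958), for Bcl2l11 Rtn4 (0.979), Ppp1r3b (0.976) and Fam168b (0.974), and for Pmaip1 Atxn7 (0.979), Rest (0.965) and Cpeb2 (0.963). For the remaining members the nearest gene had a lower r than for those above, with Dync1h1 (0.893) the nearest to Bak1, Ap2b1 (0.933) to Bcl2l1, Zfp202 (0.944) to Bid and Mon1a (0.959) to Bad. The members themselves were left out of this search, so these are the nearest genes outside the family. Bak1 and Bcl2l1 had an r of 0.910 with each other, above that of Dync1h1 with Bak1.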

How the data were processed

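Gene counts were deposited as raw whole numbers for 24 libraries, made by the authors from stranded, oligo-dT-selected paired-end reads of 101 bases; STAR 2.4.2a, Picard and mm10 are named per the submitters' processing notes, while the counting program, its strand setting and the annotation release are not given in the sources used here. Of the lines, 4 name no gene and stayed out of library sizes and tests; together they held the remainder beside the 82.7 to 85.7% of reads on genes. Symbols, positions and exon lengths came from a GENCODE annotation of GRCm38 and matched 44585 of 45318 Ensembl genes. Library sizes were scaled by TMM, genes filtered with filterByExpr, and quasi-likelihood tests run in edgeR 4.0.16 (R 4.3.3) with Benjamini-Hochberg adjustment over all genes. The 20 withdrawal libraries were fitted with time as a factor (14615 genes); R07 was compared with withdrawal at the same times with time and arm (13641 genes) and with 0 h (13704 genes). On simulated counts with 200 genes changed 2-fold, the test of 120 h against 0 h recovered 88.5% of them with 8.76% of its calls false, above the nominal 5%, that of R07 against withdrawal 99.5% with 3.86% false, and that of R07 against 0 h 96% with 4% false. The simulated libraries all followed the 0 h profile with a single dispersion of 0.02, without differences between the R07 times. In the data such differences enter the spread of R07 against 0 h. The 96% therefore does not tell how many real changes that comparison can find. DESeq2 1.42.0, RLE scaling, no filter, other library sets, a block on the letter and leaving out each library were the alternatives.

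Named genes were the 10 members, from each apoptosis list the called genes with the 2 highest and 2 lowest changes at 4 h and 120 h against 0 h and in both R07 comparisons, and the 3 genes most like each member (mean log2 CPM of at least 3), of which 1 is not reported here. The members, lists and motifs were chosen with earlier results of these data known, so no count over them is independent support. Counting floors are 3 counts over a group.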

Additional observations from a re-analysis of the deposited data

Results flagged for a closer look

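For 9 members the R07 difference from withdrawal differed between the 4 times (12, 36, 72 and 120 h) in edgeR's test of arm by time, a test added after seeing the data, whose spread comes from the withdrawal pairs since each R07 time has 1 library. The adjusted p was 1.51e-10 for Bcl2, 4.24e-11 for Bcl2l1, 1.15e-10 for Mcl1, 2.37e-14 for Bmf and 9.65e-13 for Bcl2l11. It was 1.01e-08 for Bid, 0.00324 for Bad, 3.27e-07 for Pmaip1 and 0.000186 for Bak1. With 79.5% of all genes passing the same test, the members are not set apart by it. The sizes are those given with the R07 values: Bmf had a log2 ratio of R07 to withdrawal of 3.45 at 36 h and -4.41 at 120 h, and Bid one of -0.69 at 12 h and 1.15 at 120 h.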

How the results depend on the processing

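Of 100 member changes called, none turned direction under any alternative, and 30 lost the call under at least 1 of them. Of 2502 alternative values 2395 were still called and 107 were not. The changes of Bcl2a1b are in these counts and are given as a description. R07 against 0 h called 1 member with no filter, 2 with DESeq2 and 2 with R07 from 36 h only, against 0. At 8 h, fitting only the compared times called 6 members (35.3% of all genes) against 3 (21.9%). Leaving out 1 library at a time gave 10 to 10 members over the course, 4 to 5 at 4 h, 3 to 4 at 8 h, 1 to 4 at 12 h, 1 to 4 at 24 h, 5 to 7 at 36 h, 7 to 9 at 48 h, 10 to 10 at 72 h, 8 to 8 at 96 h, 9 to 10 at 120 h, 38 to 48 steps, 0 to 4 in R07 against withdrawal (where Bcl2a1b was not tested without a withdrawal library of 72 h or 120 h), 0 to 2 in R07 against 0 h and 9 to 10 in the test of R07 by time. Where this left a time with 1 library, that library was taken to vary like the others. With RLE scaling Bcl2 in R07 against withdrawal did not pass (adjusted p = 0.0506, edgeR; 0.00363 to 0.168 over 16 alternatives), and RLE moved the median change of all genes by under 0.1 in every comparison. Without the 96 h libraries, tried after seeing the data, no count moved by over 1.5 times.

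The letters A and B were checked for pairing: correlations of the A minus B difference with that at 0 h ran from -0.629 to 0.648 over the later times. The difference was thus alike at some times and opposite at others, so the letters do not mark a constant difference. Whether libraries were paired or shared a batch is not settled by this check. With a replicate block on the letter 7 members were called at 36 h against 6 without it and 42 steps against 44; no block was possible for R07. Bcl2 at 96 h against 72 h had an adjusted p of 0.0531 under it (edgeR; 0.00508 to 0.588 over 24 alternatives). Depth bears on Bcl2a1b, at 0 to 4 counts in a pair of libraries up to 24 h, and on Bmf around 24 h.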
